A study of Rattus norvegicus with 6 samples.

Results

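Kinesins are motor proteins that walk along microtubules, and the kinesin genes described here are the heavy chains (Kif and Kifc genes) and the light chains (Klc genes). The members were the gene names in the deposited count tables that begin with Kif or Kifc followed by a number, or with Klc and a number, which gave 44 of 21170 listed genes. They were sorted into 12 kinesins of the meiotic and mitotic spindle, 13 kinesins of the flagellum, cilium or spermatid, and 19 kinesins of cargo transport or other roles. A further 6 names written into these lists, Kif2b, Kif22, Kif19a, Kifc5b, Kif1b and Kif16a, were not found under those names. Counts were made for single testis cells from SD rats, an outbred laboratory strain, with 3 control rats and 3 rats given a psychological stress by frightening sound. Each rat gave 1 library, and the labels name no genetic change. The ages of the rats and the timing of the stress are not stated in the labels used here, and p-values measure only the spread between these 6 libraries.

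During meiosis, kinesins of the spindle slide microtubules apart, move chromosomes to the equator, shorten microtubule ends and build the midzone where the cell divides. Male germ cells stay joined by bridges after division, and these bridges keep midzone proteins such as Kif23. Round spermatids then build a flagellum, a work in which the kinesin-2 motor Kif3a and Kif3b carries building material outward, and elongating spermatids shape the nucleus with a skirt of microtubules, the manchette.

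The tables held 11744 cells, from 409 in stressed replicate 1 to 2506 in stressed replicate 2, with 16756543 to 114984746 counts a library. At most 2 cell barcodes of a library occurred in another library. Clusters were made without the kinesin genes and named by marker genes as spermatocyte-like, round spermatid-like or elongating spermatid-like. The first class held 24 to 467 cells a library, the second 82 to 1099 and the third 61 to 1747. Stressed replicate 1, control replicate 3 and control replicate 2 stood apart in different ways. In stressed replicate 1, 242 of 409 cells lay in unnamed clusters, most of them with macrophage and early-response RNA beside spermatid genes, which left 24 spermatocyte-like cells. Control replicate 3 had a median of 1548 genes per cell, against 1976 and 2772 in control replicates 1 and 2. The stressed libraries had medians of 1426, 1837 and 1923. Control replicate 2 held 11 of the 1300 cells of cluster 0 but 235 of the 379 cells of cluster 11. Most clusters were filled very unequally by the libraries. Cluster 2 of the round class, for example, held 411 cells of control replicate 3 and 1 cell of control replicate 2.

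Levels are CPM, the share of a gene in the counts scaled to a fixed total, taken from the counts summed over the cells of 1 class in 1 library, scaled by the trimmed mean of M values (TMM) within the class. Sums over several genes and levels in single clusters are CPM without TMM, so they do not add up from the single values. Values are listed for replicates 1, 2 and 3 of each group in that order. CPM is a share of the RNA counted, so fewer transcripts per cell and a growing pool of other transcripts cannot be told apart. Levels of different genes are not compared, since gene lengths were not used. A difference between stages is a description here, because the classes were cut from the same cells, and it carries no p-value. Of the 44 members, 29 had a mean of at least 1 CPM over the 18 class and library sums and are called measured. Among them 22 were highest in spermatocyte-like cells, 7 in elongating spermatid-like cells and 0 in round spermatid-like cells. The shares of all measured genes by highest class are not given here. In 6 of 6 libraries, 19 of the 29 were lower and 7 higher in elongating than in spermatocyte-like cells. Of 11060 measured genes of any kind, 5761 were lower and 1895 higher.

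A threshold of 4-fold between spermatocyte-like and elongating spermatid-like cells, met in 6 of 6 libraries, sorted the measured members. A value under 3 counts was set to 3 counts in these folds. On that rule 18 of the 29 were lower in elongating cells, against 30.9% of the 11060 measured genes of any kind. On the same rule 5 were higher there, against 7.2% of measured genes. The members' median log2 ratio of elongating over spermatocyte-like was -4.34, and the median over measured genes was -2.07. The 50 most abundant genes of a library took 31.7% to 41.8% of the counts in elongating cells and 19.3% to 21.4% in spermatocyte-like cells. When TMM factors were taken over all 18 sums together, the median gene shifted from -2.07 to -0.16. Then 7 members were lower by over 4-fold in 6 of 6 libraries, against 10.8% of measured genes, and 7 were higher, against 16.8%. On either scaling 22 of the 29 members lay below the median gene.

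**Figure D1:**
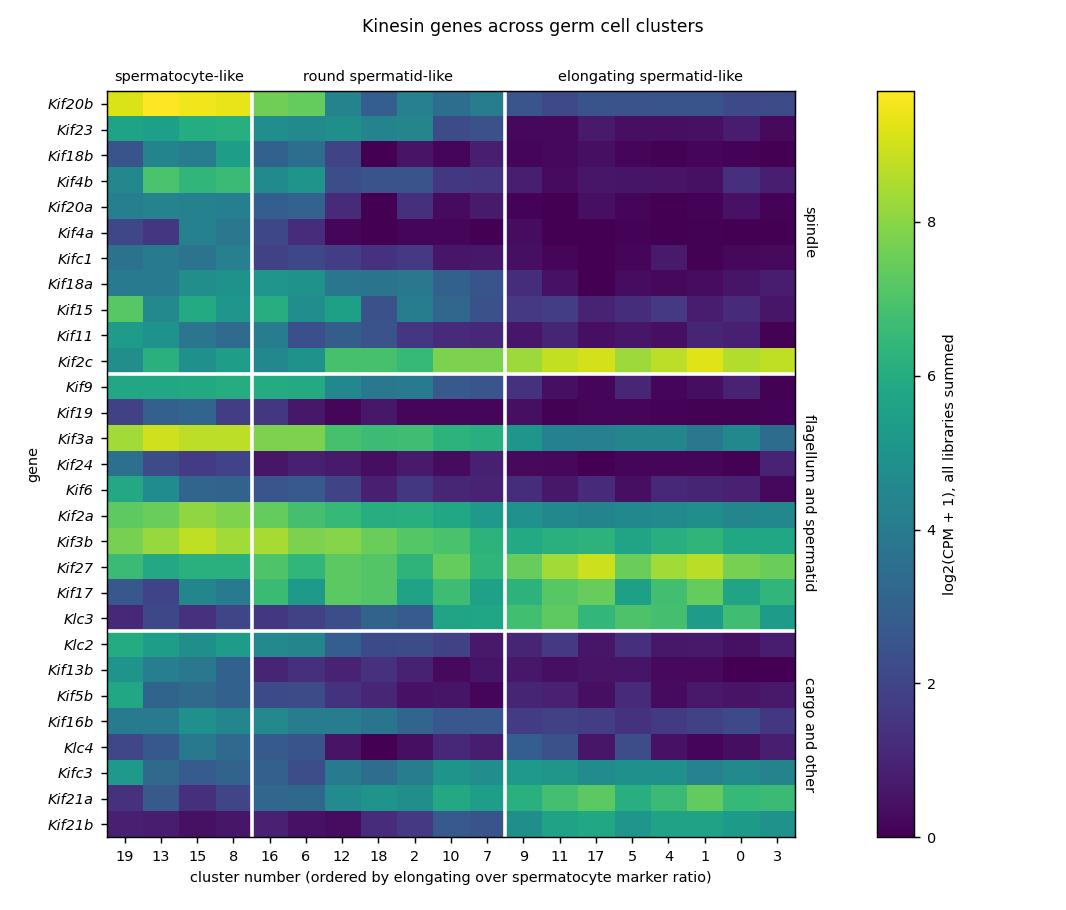
Levels of the 29 measured kinesin genes in the 19 named clusters of at least 20 cells, as log2(CPM + 1) of the counts of all libraries summed (colour); rows are grouped by list and clusters by class, ordered by the ratio of elongating to spermatocyte marker genes. Most spindle genes were brightest in the 4 spermatocyte-like clusters, whereas Kif2c, Kif27, Klc3, Kif21a and Kif21b were brightest in elongating clusters.

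The spindle list separated into 10 genes that were highest in spermatocyte-like cells and 1, Kif2c, with the opposite course. Summed without Kif2c and without TMM, the spindle kinesins made up 703 to 1143 CPM of spermatocyte-like libraries. They made up 109 to 163 CPM of round and 4.21 to 11.3 CPM of elongating ones. No 2 of these 3 ranges overlapped. With Kif2c included, the sums were 738 to 1197 CPM in spermatocyte-like, 229 to 323 CPM in round and 335 to 529 CPM in elongating libraries. The order of round and elongating cells thus depended on leaving Kif2c out. The 4-fold rule was met by 9 of the 11 measured genes in the lower direction, and the list's median log2 ratio was -6.30. With TMM over all 18 sums, 5 of the 11 met it, against 10.8% of measured genes. They were Kif20b, Kif23, Kif11, Kif15 and Kif4b, while Kif18a, Kif18b, Kif20a and Kif4a no longer met it. With TMM within a class, the log2 ratios of these 4 in stressed replicate 1 were -3.80, -2.80, -3.48 and -2.48. Each was that gene's smallest difference of the 6 libraries and a bound, with under 3 counts in elongating cells. Their mean log2 ratios with TMM over all 18 sums were -3.64, -5.11, -4.60 and -4.38. Those of Kif11 and Kif15, which met the rule, were -3.13 and -3.24. With TMM within a class, Kifc1 met the rule in 5 of 5 libraries, since in stressed replicate 1 both of its values lay under 3 counts.

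Kif20b, a motor of cytokinesis, was among the members with the widest difference between stages. In spermatocyte-like cells its level was 609, 427 and 739 CPM in the controls and 561, 924 and 895 CPM in the stressed libraries. In round cells it was 66.9, 35.3 and 62.1 CPM in the controls and 47.1, 56.9 and 60.6 CPM in the stressed libraries. In elongating cells it was 3.49, 3.53 and 2.61 CPM in the controls and 0, 8.19 and 4.33 CPM in the stressed libraries. The 3 classes did not overlap. The spermatocyte level exceeded the elongating level 113 to 706-fold, where the smallest value, in stressed replicate 2, came from counts and the fold of stressed replicate 1 is a bound, since no count was found there. Across clusters, Kif20b stood at 831, 710.4 and 672 CPM in clusters 13, 15 and 8 of the spermatocyte class. It stood at 192 and 167 CPM in the 2 earliest round clusters, numbered 16 and 6, and at 19.4 CPM or less in each later named cluster.

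The midzone motor Kif23, which pairs with Racgap1 in centralspindlin and sits in germ cell bridges, kept a larger share in round cells than Kif20b. The mean log2 ratio of round over spermatocyte-like was -1.62 for Kif23 and -3.64 for Kif20b. The spindle motors Kif15 (-1.19) and Kif18a (-0.57) kept a larger share still, so this was not particular to Kif23. Kif23 in spermatocyte-like cells was at 70.001, 30.04 and 46.4 CPM in the controls and 28.8, 47.4 and 77.8 CPM in the stressed libraries. Round cells still had 18.3, 11.7 and 14.2 CPM in the controls and 10.6, 20.7 and 18.6 CPM in the stressed libraries. Elongating cells had 0.229, 0.302 and 0.228 CPM in the controls and 0, 0.788 and 0.168 CPM in the stressed libraries. Within the round class, clusters 16, 6, 12, 18 and 2 held 19.8 to 27.4 CPM, and clusters 10 and 7 held 3.76 and 4.36 CPM. Its partner Racgap1 had 34.9 ± 8.45 CPM (SD, n = 6) in spermatocyte-like, 7.84 ± 1.48 CPM in round and 0.841 ± 0.724 CPM in elongating cells.

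The promoters of Kif20b and Kif23 are printed because both carry the cell cycle element called CHR, a hexamer known from genes of late cell division. RefSeq promoter entries on the GRCr8 build were matched for 34 of the 44 members, and each line gives the 250 bases before the annotated start, 5′ to 3′, at chr1:241840766-241841015, plus strand, and at chr8:71320585-71320834, minus strand. Capitals mark TTTGAA (CHR) and TGACG (the 5-base core of the cyclic AMP response element, CRE), each on either strand.
Kif20b: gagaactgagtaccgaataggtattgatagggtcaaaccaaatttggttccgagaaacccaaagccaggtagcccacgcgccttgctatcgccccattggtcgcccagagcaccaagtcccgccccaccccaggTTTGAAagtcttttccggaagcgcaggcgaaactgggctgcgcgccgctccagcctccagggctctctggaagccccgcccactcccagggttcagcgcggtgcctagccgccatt
Kif23: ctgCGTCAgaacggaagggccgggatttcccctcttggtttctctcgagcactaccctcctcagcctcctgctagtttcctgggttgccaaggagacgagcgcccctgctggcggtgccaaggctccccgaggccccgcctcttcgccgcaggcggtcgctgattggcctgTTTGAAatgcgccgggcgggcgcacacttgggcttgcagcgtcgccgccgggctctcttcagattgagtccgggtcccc
TTTGAA was found in 4 of the 10 spindle promoters matched, those of Kif20b, Kif23, Kif15 and Kifc1, and in 16.03% of 27457 promoters of the same length. A match in these letters is a description of the sequence and not a binding site.

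The motors that move or separate spindle microtubules had the same order of stages. Kif11, the tetramer that pushes spindle poles apart, had 17.3, 21.5 and 5.67 CPM in the controls and 58.7, 13.6 and 19.4 CPM in the stressed libraries in spermatocyte-like cells. Stressed replicate 1 stood far above the rest, and its 53 counts came from 6 cells, with 32 in 1 cell. Kif11 in round cells was at 4.25, 5.38 and 1.2 CPM in the controls and 8.41, 2.37 and 4.4 CPM in the stressed libraries. Kif11 in elongating cells was at 0.39, 1.16 and 0.0415 CPM in the controls and 1.59, 0.754 and 0.738 CPM in the stressed libraries. Each library had the order spermatocyte, round, elongating from high to low. Kif11 was higher in cluster 13, led by the pachytene genes Piwil1 and Psma8, than in cluster 8, led by Aurka and Tpx2. Libraries with at least 20 cells had 28.6 to 40.3 CPM in cluster 13 and 3.69 to 12.7 CPM in cluster 8, and these ranges did not overlap. Kif15 is a motor that can take over from Kif11. Kif15 in spermatocyte-like cells was at 33.5, 60.3 and 48.3 CPM in the controls and 55.4, 53.3 and 30.1 CPM in the stressed libraries. Kif15 in round cells was at 17, 28.4 and 15.4 CPM in the controls and 21.6, 21.1 and 18.1 CPM in the stressed libraries. Kif15 in elongating cells was at 1.54, 1.93 and 0.498 CPM in the controls and 0.53, 1.8 and 2.01 CPM in the stressed libraries. Its 3 classes did not overlap. It was highest in cluster 19, the smallest spermatocyte cluster, at 127 to 134 CPM in the 2 libraries with at least 20 cells there.

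Among the motors that act at microtubule plus ends, Kif18b was highest in another spermatocyte cluster than Kif11. Its level in spermatocyte-like cells was 38.5, 11.4 and 42.7 CPM in the controls and 5.54, 11.9 and 30.4 CPM in the stressed libraries. Pooled over libraries it stood at 41.3 CPM in cluster 8, 19.8 CPM in cluster 13 and 4.74 CPM in cluster 19, but the libraries of clusters 8 and 13 overlapped (11.3 to 58.96 and 8.28 to 33.6 CPM). Cluster 8 made up 86.0% and 3.33% of the spermatocyte-like cells of control replicates 3 and 2, whose Kif18b values were the highest and lowest of the controls, and its part in those values was not tested. Kif18b in round cells was at 3.31, 1.66 and 3.14 CPM in the controls and 8.41, 1.00 and 5.1 CPM in the stressed libraries. Kif18b in elongating cells was at 0.161, 0.139 and 0.0415 CPM in the controls and 0, 0.0685 and 0.101 CPM in the stressed libraries. In stressed replicate 1, Kif18b was higher in round than in spermatocyte-like cells, on 5 counts in the latter. Kif18a, which holds chromosomes at the equator, overlapped between the first 2 classes. Kif18a in spermatocyte-like cells was at 25.3, 19.8 and 26.2 CPM in the controls and 11.1, 27.8 and 28.01 CPM in the stressed libraries. Kif18a in round cells was at 20.2, 12.5 and 15.004 CPM in the controls and 14.6, 14.2 and 13.7 CPM in the stressed libraries. Kif18a in elongating cells was at 1.19, 0.139 and 0.311 CPM in the controls and 0.265, 0.308 and 0.805 CPM in the stressed libraries. The elongating values lay below all others. In stressed replicate 1 it was higher in round than in spermatocyte-like cells (14.6 against 11.1 CPM).

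The remaining spindle members were the midzone motor Kif20a, the chromosome-arm motors Kif4a and Kif4b, the minus-end motor Kifc1 and Kif14, a motor of cytokinesis. Kif20a in spermatocyte-like cells was at 18.04, 15.4 and 20.5 CPM in the controls and 8.86, 13.1 and 20.98 CPM in the stressed libraries. Kif20a in round cells was at 4.00, 1.52 and 3.27 CPM in the controls and 1.1, 2.37 and 1.12 CPM in the stressed libraries. Kif20a in elongating cells was at 0.0918, 0 and 0.332 CPM in the controls and 0, 0.0514 and 0.268 CPM in the stressed libraries. The 3 classes of this gene did not overlap. Kif4b in spermatocyte-like cells was at 111, 61.98 and 103 CPM in the controls and 52.05, 81.2 and 97.7 CPM in the stressed libraries. Kif4b in round cells was at 12.2, 6.05 and 12.4 CPM in the controls and 9.14, 8.47 and 10.4 CPM in the stressed libraries. Kif4b in elongating cells was at 0.711, 0.65 and 1.6 CPM in the controls and 0.265, 0.223 and 0.536 CPM in the stressed libraries. Its classes did not overlap either, and the fold between the first and last was 64.3 to 365. Kif4a in spermatocyte-like cells was at 7.64, 10.1 and 16.997 CPM in the controls and 4.43, 10.6 and 14.2 CPM in the stressed libraries. Kif4a in round cells was at 0.156, 0.807 and 0.388 CPM in the controls and 0, 0.947 and 0.699 CPM in the stressed libraries. Kif4a in elongating cells was at 0.0229, 0 and 0 CPM in the controls and 0, 0.154 and 0.0335 CPM in the stressed libraries. Spermatocyte-like values lay above all others, while round and elongating values overlapped. Kif4a and Kif4b are near-identical copies, so how the counting split reads between them is uncertain. Kifc1, which also serves the acrosome in spermatids, had 0 to 27.01, 0.986 to 3.34 and 0.0335 to 0.498 CPM. Kif14 was under the level called measured, with 0 to 4.48 CPM in spermatocyte-like cells and 89 counts in 32 of those cells.

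Kif2c, a kinesin that does not walk but takes microtubule ends apart at centromeres, ran against its list. In spermatocyte-like cells it had 41.3, 32.9 and 42.7 CPM in the controls and 52.05, 56.6 and 53.5 CPM in the stressed libraries. In round cells it had 118, 153 and 113 CPM in the controls and 196, 141 and 119 CPM in the stressed libraries. In elongating cells it had 488, 542 and 353 CPM in the controls and 295, 441 and 432 CPM in the stressed libraries. The 3 classes did not overlap, and each library had the order spermatocyte, round, elongating. The elongating level exceeded the spermatocyte level 5.68 to 16.5-fold, with a log2 ratio of 3.19 ± 0.54 (SD, n = 6). The related depolymerase Kif2a had the opposite order. Kif2a in spermatocyte-like cells was at 224, 199 and 188 CPM in the controls and 240.3, 231 and 221 CPM in the stressed libraries. Kif2a in round cells was at 76.9, 84.1 and 73.2 CPM in the controls and 77.8, 79.9 and 74.2 CPM in the stressed libraries. Kif2a in elongating cells was at 21.5, 28.9 and 23.1 CPM in the controls and 19.9, 28.9 and 23.1 CPM in the stressed libraries. Its classes did not overlap. In cluster 1, a late elongating cluster, Kif2c stood at 597 CPM.

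**Figure D2:**
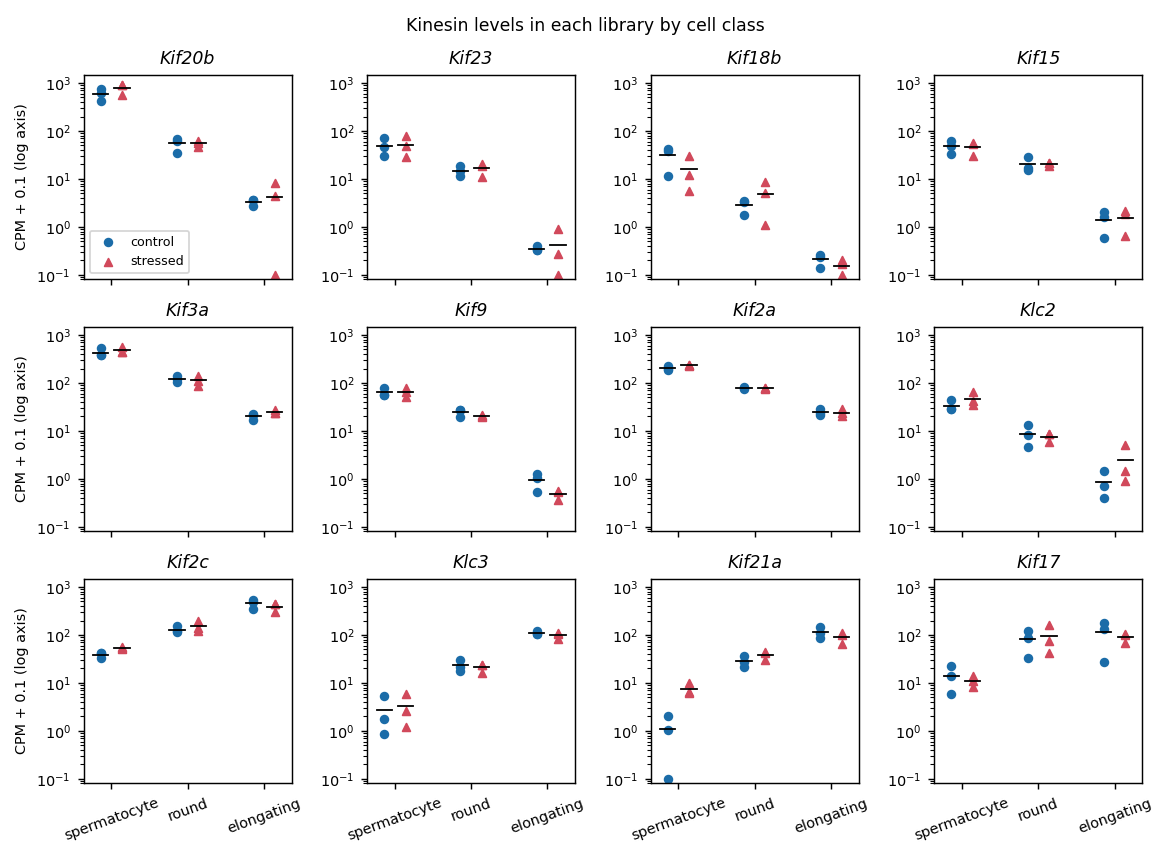
Levels of 12 kinesin genes in each library by cell class, as CPM + 0.1 on a log axis; circles are the 3 control and triangles the 3 stressed libraries, and each bar is the mean of 3. The upper 8 genes step down from spermatocyte-like to elongating cells, the lower 4 step up or, for Kif17, level off after the round class, and control and stressed points mostly intermix.

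Partners of the spindle kinesins followed the same order of stages. Of 32 spindle and midbody genes, 28 were lower in elongating cells by over 4-fold in 6 of 6 libraries, and their median log2 ratio was -6.08. The list shares Aurka, Tpx2, Ccnb2 and Cdk1 with the markers that named the spermatocyte-like class, so their direction was fixed by the naming. Without these 4 genes the count was 24 of 28, with a median of -5.84, against 30.9% of measured genes. With TMM over all 18 sums 22 of the 32 were lower by this rule, against 10.8% of measured genes. Plk1, a kinase of mitosis and meiosis that was no marker, had 146 ± 28.7 CPM (SD, n = 6) in spermatocyte-like and 1.09 ± 0.802 CPM in elongating cells, and was picked after the list's results were seen. The exception in direction was Incenp, a scaffold of the chromosomal passenger complex, with 43.4 ± 25.7 CPM, 26.3 ± 13.1 CPM and 128 ± 27.3 CPM in order of stage, and its course was picked out after its values were seen. Marker genes of spermatocytes that were used to name the clusters had a median log2 ratio of -4.90.

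The flagellum and spermatid list did not follow its name as 1 group. Of its 13 members 10 were measured, and 5 were lower and 2 higher in elongating cells by over 4-fold in 6 of 6 libraries, against 30.9% and 7.2% of measured genes. With TMM over all 18 sums, 2 of those 5, Kif3a and Kif9, stayed past the threshold, and Kif27 joined Kif17 and Klc3 among the higher. On that scaling 10.8% of measured genes were lower and 16.8% higher. The kinesin-2 pair that drives transport into the flagellum was highest in spermatocyte-like cells. Kif3a had 374, 374 and 537 CPM in the controls and 449, 445 and 549 CPM in the stressed libraries there. Kif3a in round cells was at 105, 121 and 136 CPM in the controls and 85.2, 110.1 and 142 CPM in the stressed libraries. Kif3a in elongating cells was at 16.8, 22.2 and 21.6 CPM in the controls and 26.8, 23.5 and 23.6 CPM in the stressed libraries. Its 3 classes did not overlap. Kif3b in spermatocyte-like cells was at 358, 352 and 275 CPM in the controls and 369, 325 and 315 CPM in the stressed libraries. Kif3b in round cells was at 179, 192 and 133 CPM in the controls and 228, 169 and 154 CPM in the stressed libraries. Kif3b in elongating cells was at 71.6, 80.4 and 55.7 CPM in the controls and 57.5, 66.1 and 62.6 CPM in the stressed libraries. The classes of Kif3b did not overlap. Relative to the median gene, the log2 ratio of elongating over spermatocyte-like was -0.27 for Kif3b and -2.27 for Kif3a, with the smaller difference for Kif3b.

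The third subunit of that motor, Kifap3, which joins it to cargo and is not a member, had 271 ± 106 CPM (SD, n = 6) in spermatocyte-like cells. It had 1144 ± 133 CPM in round and 851 ± 100.2 CPM in elongating cells, and each library was lowest in the spermatocyte-like class. It was picked out after its values were seen. Of 38 measured genes of transport and the manchette, 16 were lower and 4 higher in elongating cells by over 4-fold in 6 of 6 libraries, with a median log2 ratio of -1.69. These are 42.1% and 10.5% of the list, against 30.9% and 7.2% of measured genes. The list shares Spag6l, Odf1 and Crem with the naming markers, and without them 15 of 35 were lower and 3 higher. With TMM over all 18 sums 6 of the 38 were lower and 7 higher, against 10.8% and 16.8% of measured genes. Kifap3 and Hook1 were among the 7. Hook1, a manchette protein, had 212 ± 31.8 CPM, 388 ± 62.7 CPM and 502 ± 44.6 CPM in order of stage. Ift20, a subunit of the flagellar transport train, had 120.0 ± 28.8 CPM, 23.8 ± 5.14 CPM and 1.98 ± 0.692 CPM.

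Kif9 and Kif6, motors of the sperm tail, were also highest before the spermatid stages. Kif9 had 56.8, 56.8 and 77.5 CPM in the controls and 77.5, 50.1 and 63.1 CPM in the stressed libraries in spermatocyte-like cells. Kif9 in round cells was at 27.5, 19.7 and 27.1 CPM in the controls and 19.4, 19.9 and 21.5 CPM in the stressed libraries. Kif9 in elongating cells was at 1.17, 0.441 and 0.933 CPM in the controls and 0.265, 0.463 and 0.436 CPM in the stressed libraries. The difference was 48.6 to 145-fold between the first and last class, and no classes overlapped. Through the first 2 round clusters it stayed at 60.8 and 59.2 CPM, and it stood at 5.49 and 5.05 CPM in the last 2. Kif6 in spermatocyte-like cells was at 16.4, 15.2 and 17.9 CPM in the controls and 8.86, 20.4 and 5.25 CPM in the stressed libraries. Kif6 in round cells was at 3.00, 2.55 and 2.03 CPM in the controls and 1.83, 2.31 and 3.53 CPM in the stressed libraries. Kif6 in elongating cells was at 1.08, 0.997 and 0.228 CPM in the controls and 0, 1.16 and 1.11 CPM in the stressed libraries. Its classes did not overlap, and the lowest spermatocyte-like value was that of stressed replicate 3. Kif6 was highest in clusters 19 and 13, at 56.5 and 25.5 CPM, against 7.86 and 7.56 CPM in the other 2 spermatocyte clusters, pooled over libraries. By library, cluster 13 (4.8 to 35.2 CPM) overlapped cluster 15 (5.87 to 16.04 CPM) and cluster 8 (4.68 to 12.6 CPM). The ciliary kinesins Kif19 and Kif24 were low everywhere, and both were highest in spermatocyte-like cells on average. Kif19 in spermatocyte-like cells was at 6.06, 11.8 and 0.531 CPM in the controls and 0, 2.69 and 1.5 CPM in the stressed libraries. Kif24 in spermatocyte-like cells was at 4.44, 3.04 and 4.25 CPM in the controls and 0, 2.05 and 2.25 CPM in the stressed libraries. Neither had a count in the spermatocyte-like cells of stressed replicate 1.

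Kif17, Kif27 and Klc3 made up the part of the flagellum list that was highest in spermatids. Kif17, a kinesin-2 of spermatids known to carry the coactivator Act, had 13.7, 22.8 and 5.67 CPM in the controls and 11.1, 13.8 and 8.06 CPM in the stressed libraries in spermatocyte-like cells. Round cells had 87.97, 121 and 32.8 CPM in the controls and 162, 73.7 and 42.6 CPM in the stressed libraries. Elongating cells had 133, 181 and 27.8 CPM in the controls and 105, 101 and 67.7 CPM in the stressed libraries. Round and elongating levels overlapped, and 4 of 6 libraries were higher in elongating cells. Kif27, a relative of the ciliary kinesin Kif7, had overlapping ranges in neighbouring classes. Kif27 in spermatocyte-like cells was at 84.7, 60.3 and 46.9 CPM in the controls and 90.8, 78.1 and 40.7 CPM in the stressed libraries. Kif27 in round cells was at 111, 150.2 and 65.7 CPM in the controls and 202, 146 and 89.1 CPM in the stressed libraries. Kif27 in elongating cells was at 312, 447 and 143 CPM in the controls and 237, 294 and 222 CPM in the stressed libraries. Each library had the order spermatocyte, round, elongating for Kif27, and the elongating level exceeded the spermatocyte level 2.61 to 7.41-fold.

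Control replicate 3 had the lowest Kif17 and the lowest Kif27 of all libraries in both spermatid classes. That library also had the fewest genes per cell in both, with medians of 2040 in round and 1124 in elongating cells, against 2418 to 3396 and 1379 to 2877 in the others. In cluster 9, which had at least 20 cells in each library, Kif17 stood at 91.03, 129.8 and 25.2 CPM in the controls and 141, 70.4 and 49.4 CPM in the stressed libraries. There Kif27 stood at 174, 258 and 74.4 CPM in the controls and 338, 181 and 125 CPM in the stressed libraries. Control replicate 3 was again lowest for both, with a median of 1891 genes per cell in that cluster against 2264 to 3160. The part of genes per cell in these levels was not tested.

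Kinesin-1 is built from heavy chains (Kif5 genes) and light chains (Klc genes) that bind cargo, and 2 of its light chains had opposite orders of stages. Klc2 had 43.2, 28.5 and 28.9 CPM in the controls and 65.3, 34.96 and 41.5 CPM in the stressed libraries in spermatocyte-like cells. Klc2 in round cells was at 13.2, 7.98 and 4.56 CPM in the controls and 8.41, 5.73 and 8.45 CPM in the stressed libraries. Klc2 in elongating cells was at 1.33, 0.626 and 0.29 CPM in the controls and 5.03, 0.805 and 1.34 CPM in the stressed libraries. The top elongating value belonged to stressed replicate 1 and rested on 19 counts in 1 cell. Klc3, a light chain known to bind outer dense fibres and mitochondria of the sperm tail, had 1.63, 0.76 and 5.31 CPM in the controls and 1.11, 5.89 and 2.44 CPM in the stressed libraries in spermatocyte-like cells. In elongating cells it had 104, 119.5 and 105 CPM in the controls and 106, 81.1 and 111 CPM in the stressed libraries. Klc3 in round cells was at 21.5, 30.3 and 18.02 CPM in the controls and 16.1, 23.5 and 23.3 CPM in the stressed libraries. The 3 classes of Klc3 did not overlap. In 6 of 6 libraries Klc2 was lower and Klc3 higher in elongating than in spermatocyte-like cells. Within the round class Klc3 stood at 6.06 CPM in cluster 2 and 49.7 and 53.1 CPM in clusters 10 and 7.

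Klc4 was highest in spermatocyte-like cells in each library. Relative to the median gene, its log2 ratio of elongating over spermatocyte-like was -0.04, so its difference was that of a typical measured gene. Klc4 in spermatocyte-like cells was at 10.3, 8.56 and 6.91 CPM in the controls and 6.64, 6.53 and 8.06 CPM in the stressed libraries. Klc4 in round cells was at 3.09, 2.15 and 1.42 CPM in the controls and 1.1, 0.894 and 1.19 CPM in the stressed libraries. Round and elongating values of Klc4 overlapped. The heavy chains were low in all classes. Kif5b in spermatocyte-like cells was at 8.23, 15.02 and 7.97 CPM in the controls and 5.54, 13.1 and 10.3 CPM in the stressed libraries. Kif5b in round cells was at 0.281, 1.66 and 2.55 CPM in the controls and 0.731, 1.1 and 0.349 CPM in the stressed libraries. Kif5b in elongating cells was at 0.321, 0.951 and 0.788 CPM in the controls and 0.53, 0.48 and 1.37 CPM in the stressed libraries. Spermatocyte-like values lay above the others. In cluster 19 it reached 44.7 to 66.1 CPM. Kif5a and Kif5c were under the level called measured, with at most 0.345 and 2.85 CPM in any spermatocyte-like library. Summed over Kif5a, Kif5b and Kif5c without TMM, elongating cells held 0.894 to 2.29 CPM. The 4 light chains together, also without TMM, held 74.4 to 162 CPM. These sums were not set against each other per length.

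The highest shifts toward spermatids in the cargo list were those of Kif21a and Kif21b, which slow microtubule growth in neurons. Kif21a had 1.97, 0.951 and 0 CPM in the controls and 9.97, 6.4 and 6.18 CPM in the stressed libraries in spermatocyte-like cells. It had 21.3, 36.5 and 27.02 CPM in the controls and 43.1, 41.5 and 29.6 CPM in the stressed libraries in round cells. In elongating cells it had 110.5, 143 and 85.4 CPM in the controls and 63.9, 102 and 110.2 CPM in the stressed libraries. The 3 classes did not overlap. Kif21b was low before elongation, with at most 1.54 CPM in spermatocyte-like and 5.42 CPM in round cells. Kif21b in spermatocyte-like cells was at 0.69, 0.19 and 0 CPM in the controls and 0, 1.54 and 0 CPM in the stressed libraries. Kif21b in round cells was at 3.94, 4.08 and 1.29 CPM in the controls and 2.19, 5.42 and 0.559 CPM in the stressed libraries. Kif21b in elongating cells was at 51.9, 49.5 and 22.96 CPM in the controls and 17.2, 44.8 and 42.98 CPM in the stressed libraries. In 4 of 6 libraries the spermatocyte-like value was under 3 counts, so the folds there are bounds.

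Spermatocyte-like cells carried 5800 to 11677 CPM of 17 elongating spermatid markers, and round cells 34703 to 49112 CPM. Elongating cells carried 102572 to 159801 CPM of them. The part of such RNA in the low spermatocyte-like levels and in the round levels of Klc3, Kif21a and Kif2c was not tested. Stromal markers reached 1050 CPM in the spermatocyte-like cells of stressed replicate 1 and at most 31.9 CPM in those of the other 5 libraries. Summed macrophage markers were 791 CPM in the spermatocyte-like cells of stressed replicate 1, against 106 to 243 CPM in those of the other 5. That library holds the outlying Kif11 value and the highest Kif21a value of the class, and the part of other cells' RNA in them was not tested. The same markers were 1835 to 2373 CPM in round and 2682 to 3220 CPM in elongating cells, with Aif1, a gene that spermatids also express, among them. Endothelial and T cell markers were at most 1.91 and 8.17 CPM in any class.

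The promoters of the members that were higher in elongating cells are printed because each holds a CRE core. Promoter entries were matched for 4 of those 5 genes, Kif2c, Klc3, Kif17 and Kif21a. Positions on GRCr8 are chr5:135899213-135899462, minus strand, for Kif2c, chr1:88183423-88183672, minus strand, for Klc3, chr5:155765342-155765591, plus strand, for Kif17, and chr7:124058541-124058790, minus strand, for Kif21a. Capitals mark TTTGAA or TGACG as above.
Kif2c: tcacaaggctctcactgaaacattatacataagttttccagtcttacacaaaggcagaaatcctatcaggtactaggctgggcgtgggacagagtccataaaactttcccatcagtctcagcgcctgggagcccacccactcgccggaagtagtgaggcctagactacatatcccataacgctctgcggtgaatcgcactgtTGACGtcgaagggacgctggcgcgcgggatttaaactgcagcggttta
Klc3: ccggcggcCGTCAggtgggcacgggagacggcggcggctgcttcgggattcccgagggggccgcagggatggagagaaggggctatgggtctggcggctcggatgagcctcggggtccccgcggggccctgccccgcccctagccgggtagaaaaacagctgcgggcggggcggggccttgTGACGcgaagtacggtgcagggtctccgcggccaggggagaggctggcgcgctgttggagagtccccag
Kif17: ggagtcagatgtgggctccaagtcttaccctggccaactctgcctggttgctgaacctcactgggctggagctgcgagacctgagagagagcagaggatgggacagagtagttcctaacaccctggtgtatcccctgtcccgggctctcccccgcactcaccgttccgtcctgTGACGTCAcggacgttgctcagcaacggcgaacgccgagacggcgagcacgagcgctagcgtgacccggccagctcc
Kif21a: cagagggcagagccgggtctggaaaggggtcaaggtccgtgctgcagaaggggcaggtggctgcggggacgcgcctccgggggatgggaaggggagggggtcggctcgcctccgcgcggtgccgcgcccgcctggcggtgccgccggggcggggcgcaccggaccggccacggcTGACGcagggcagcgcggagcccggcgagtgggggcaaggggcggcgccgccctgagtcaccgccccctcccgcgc
TGACG on either strand was present in 4 of 4, in 6 of the 16 matched promoters of members lower in elongating cells, and in 18.96% of 27457 promoters. It was also present in 6 of the 10 spindle promoters and in 14 of all 34 members matched, so it did not separate the higher members from the other kinesins. The full palindrome TGACGTCA, which contains TGACG on both strands, was present in 4 of the 34 members matched, Kif17, Kif15, Kif5c and Klc1, and in 1.70% of promoters. Of these, Kif15 was lower and Kif17 higher in elongating cells. CRE is the element bound by Crem, the factor that round spermatids use for postmeiotic transcription. TTTGAA was in 0 of the 4 and in 3 of the 16. The members were grouped by their levels, so these counts describe the letters only.

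**Figure D3:**
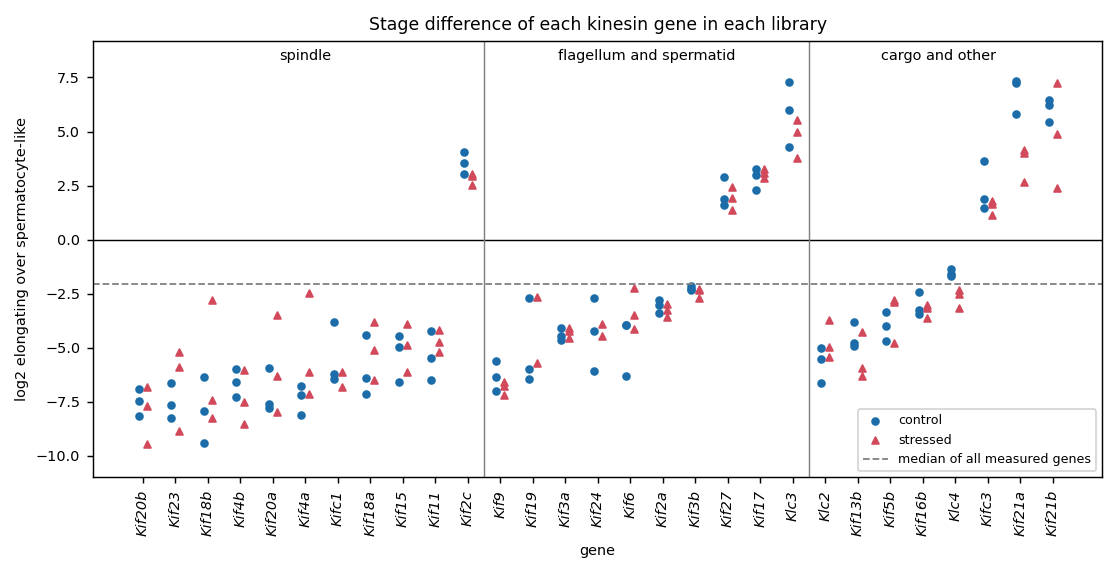
Log2 ratio of the elongating over the spermatocyte-like level (vertical axis) for each measured kinesin gene (horizontal axis) in each library, with values under 3 counts set to 3 counts; circles are control and triangles stressed libraries, the solid line is no difference and the dashed line the median of all measured genes at -2.07. All libraries of a gene lie on the same side of 0, with 7 genes above it.

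Of the 8 measured cargo members, 4 were lower and 2 higher in elongating cells by over 4-fold in 6 of 6 libraries. The shares of measured genes were 30.9% and 7.2%. The 4 were Kif5b, Klc2, Kif13b and Kif16b, an endosome motor. With TMM over all 18 sums 0 of the 8 were lower by this rule, against 10.8% of measured genes. On that scaling 3 were higher, Kif21a, Kif21b and Kifc3, against 16.8%. Kif16b in spermatocyte-like cells was at 16.6, 31.2 and 16.8 CPM in the controls and 9.97, 22.8 and 23.4 CPM in the stressed libraries. Kif16b in round cells was at 10.97, 11.3 and 9.72 CPM in the controls and 9.14, 8.68 and 11.1 CPM in the stressed libraries. Kif16b in elongating cells was at 1.74, 2.83 and 3.13 CPM in the controls and 0.53, 2.81 and 2.65 CPM in the stressed libraries. Spermatocyte-like and round values overlapped through stressed replicate 1. Kif13b in spermatocyte-like cells was at 15.3, 13.3 and 0.885 CPM in the controls and 15.5, 13.8 and 8.06 CPM in the stressed libraries. Kif13b in round cells was at 0.938, 0.672 and 0.758 CPM in the controls and 0.731, 0.842 and 1.05 CPM in the stressed libraries. Kif13b in elongating cells was at 0.551, 0.441 and 0 CPM in the controls and 0.53, 0.223 and 0.0335 CPM in the stressed libraries. Control replicate 3 was far below the other libraries in spermatocyte-like cells. The minus-end motor Kifc3 had 2.12 to 14.2, 14.9 to 43.1 and 22.97 to 33.997 CPM in order of stage. With TMM within a class, Kifc3 was higher in elongating than in spermatocyte-like cells in 6 of 6 libraries but over 4-fold in 1.

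With TMM within a class, the threshold of 4-fold left 6 measured members between the groups. Just inside it lay Kif3b, with 4.38 to 6.41-fold over the libraries, and Kif17, with 4.91 to 9.71-fold. Just outside lay Kif27, with 2.61 to 7.41-fold and 2 libraries over 4-fold, and Klc4, with 2.54 to 9.08-fold lower and 3 libraries over 4-fold. Kifc1, Kif19 and Kif24 passed in the 5 libraries where a fold could be given, and Kifc3 passed in 1.

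The 15 members under a mean of 1 CPM were Kif1a, Kif1c, Kif3c, Kif5a, Kif5c, Kif7, Kif12, Kif13a, Kif14, Kif19b, Kif26a, Kif26b, Kif28p, Kifc2 and Klc1. Kif19b had no count in any cell, and the most counted of the 15, Kif26a, had 366 counts in all cells. Klc1, a light chain, was highest in spermatocyte-like cells in 6 of 6 libraries, and it was 5.69 to 107-fold lower in elongating cells over the 5 libraries where a fold could be given, with bounds where the lowest class was under 3 counts. Kif14 was lower in elongating cells in 5 of 5 such libraries, by 3.99 to 52.3-fold, and the heavy chain Kif5c in 5 of 5, by 1.01 to 12.7-fold.

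Stressed libraries were compared with controls in each class by edgeR's quasi-likelihood test on summed counts, with Benjamini-Hochberg adjustment over all genes tested. No kinesin gene passed an adjusted p of 0.05 in any class. In spermatocyte-like cells 0 of 30 members tested were called, and 0% of 9995 genes. In round cells 0 of 30 members were called and 0.0167% of 11956 genes, and in elongating cells 0 of 30 and 0.00897% of 11148. Over all cells of a library, 0 of 40 members were called and 0.00689% of 14519 genes. DESeq2 also called 0 members in each of these 4 comparisons, with 3, 10, 6 and 4 genes of any kind.

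At an unadjusted p under 0.05 there was 1 of 30 members in spermatocyte-like cells, where 1.65% of genes passed. There were 0 of 30 in round cells (2.47% of genes), 1 of 30 in elongating cells (1.7%) and 0 of 40 over all cells (1.38%). DESeq2 gave 1, 0, 2 and 1 members, but its share over all genes at this cut is not given here. These DESeq2 counts therefore cannot be set against a background. Control and stressed values did not overlap for 3 of 30 members in spermatocyte-like cells, Kif21a, Kif2c and Kif24, against 7.63% of genes. They did not overlap for 1 of 30 in round cells, Klc4, against 8.02%. In elongating cells the 4 of 30 were Kif3a, Kif26b, Klc4 and Kif4b, against 6.49%. Over all cells the 1 of 40 was Kif26b, against 4.91%.

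The members' median log2 change was 0.01 in spermatocyte-like, 0.00 in round and -0.16 in elongating cells, and the medians over all tested genes were -0.02, -0.01 and -0.03. The spindle list had medians of -0.05, 0.01 and -0.16 in these classes. The flagellum list had 0.01, -0.01 and -0.16, and the cargo list had 0.37, 0.03 and -0.20. In spermatocyte-like cells 15 members were higher and 15 lower, against 4811 and 5184 of all tested genes. In elongating cells 10 members were higher and 20 lower, against 5274 and 5874 of all tested genes. The flagellum list there had 2 higher and 9 lower, the spindle list 3 and 4, and the cargo list 5 and 7.

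Kif21a had the smallest unadjusted p of the members in spermatocyte-like cells. Its control values of 1.97, 0.951 and 0 CPM lay below its stressed values of 9.97, 6.4 and 6.18 CPM, with a log2 change of 2.81 ± 1.09 (SE). It did not pass edgeR's test after adjustment (unadjusted p = 0.0264, adjusted p = 0.99965). These values rest on 170 counts in 32 cells, of which stressed replicate 1 gave 9 counts in 2 cells. In round cells the difference was small, with a log2 change of 0.42 ± 0.28 (SE).

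Klc4 had the smallest p in elongating cells, with 4.04, 2.88 and 2.12 CPM in the controls and 1.32, 0.719 and 1.41 CPM in the stressed libraries. All stressed values lay below all control values, with a log2 change of -1.43 ± 0.56 (SE), and edgeR's adjusted p was 0.99997 (unadjusted p = 0.0241). The order of the groups was the same in round cells, with a log2 change of -1.07 ± 0.59 (SE). In round cells the highest stressed value was 1.19 CPM and the lowest control value 1.42 CPM. Both classes held few counts of Klc4, with 278 in 58 round cells and 491 in 122 elongating cells.

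The next members by p in spermatocyte-like cells were Kif19, Kif20b and Kif11. Kif20b had a log2 change of 0.43 ± 0.28 (SE), and its control and stressed values overlapped. Kif11 had a log2 change of 0.98 ± 0.66 (SE) whose sign turned, to -0.23, without both control replicate 3 and stressed replicate 1. Kif19 had a log2 change of -1.87 ± 1.13 (SE), with 0 counts in stressed replicate 1. In round cells they were Kif20a, Kif21a and Kif24, with log2 changes of -0.89, 0.42 and -1.19. Kif24 in round cells was at 0.781, 0.359 and 0.924 CPM in the controls and 0, 0.21 and 0.489 CPM in the stressed libraries. In elongating cells Kif4b had a log2 change of -1.47 ± 0.79 (SE), Klc2 a log2 change of 1.52 ± 0.83 (SE) and Kif9 a log2 change of -1.03 ± 0.76 (SE). The Klc2 change was 0.52 without stressed replicate 1, where 1 cell held all 19 counts. Over all alternatives it ranged from 0.0198 to 2.24. In cells of all kinds, Kif12 was at 0.0786, 0.173 and 0 CPM in the controls and 1.86, 0.183 and 0.0508 CPM in the stressed libraries, and Kif13a at 0.148, 0.398 and 0.171 CPM in the controls and 1.2, 0.806 and 0.178 CPM in the stressed libraries. Klc4 was at 4.28, 3.04 and 1.96 CPM in the controls and 1.4, 1.34 and 2.06 CPM in the stressed libraries, and Kif19 at 1.13, 1.14 and 0.215 CPM in the controls and 0.199, 0.318 and 0.356 CPM in the stressed libraries. Over all cells Kif12, Klc4, Kif19 and Kif13a came first. Kif12 (log2 change 2.97 ± 1.48, SE) had 28 counts in 2 cells of stressed replicate 1. The Kif12 change turned to -0.07 without both control replicate 3 and stressed replicate 1.

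**Figure D4:**
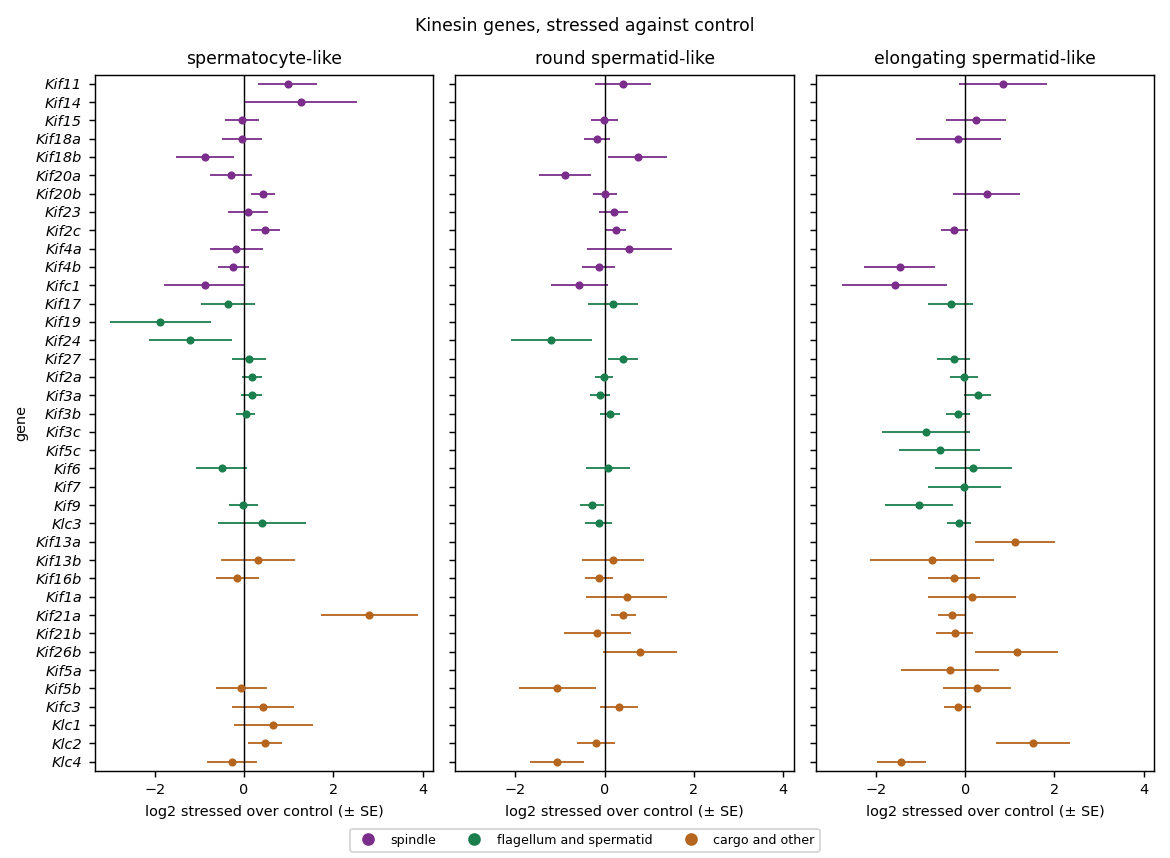
Log2 change of stressed over control libraries (horizontal axis) with its standard error (bars) for each kinesin gene tested (vertical axis) in each of the 3 classes, from edgeR with 3 libraries a group; colours mark the lists. No gene passed an adjusted p of 0.05, and the largest change, 2.81 for Kif21a in spermatocyte-like cells, had an adjusted p of 0.99965.

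Whether stress altered the step from 1 stage to the next was tested with an interaction term and the library as a block. For round against spermatocyte-like cells, 0 of 33 members and 0% of 12853 genes were called. At an unadjusted p under 0.05 there was 1 member and 2.76% of genes. That member was Kif21a, with a difference in log2 change of -2.39 ± 0.86 (SE), and Kif20b (-0.41 ± 0.19) and Kif3a (-0.33 ± 0.23) came next. For elongating against round cells, 0 of 35 members and 0% of 13207 genes were called. There 1 member had an unadjusted p under 0.05, against 2.37% of genes. It was Klc2, with 1.51 ± 0.69 (0.888 without stressed replicate 1), followed by Kif21a (-0.66 ± 0.32) and Kif4b (-1.34 ± 0.65). DESeq2 was not run on the interaction fits.

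The partner lists gave no call either. Among the spindle and midbody genes 0 of 32 passed the adjusted threshold in spermatocyte-like cells and 0 of 25 in elongating cells. Hmmr, a spindle assembly protein, had the smallest p of that list in elongating cells, with a log2 change of 2.04 ± 0.63 (SE) and edgeR's adjusted p of 0.99997. In spermatocyte-like cells Top2a, which untangles chromosomes, came first with 0.51 ± 0.19 (SE), and 25 of the 32 had values above and 7 below no change (median 0.26), against 4811 and 5184 of all tested genes. The share of the Aurka-led clusters 8 and 15 in these cells was 64.0% to 86.8% over controls and 58.3% to 78.9% over stressed libraries, and its part in these values was not tested. In round cells 0 of 32 passed, 13 higher and 19 lower. Among the transport and manchette genes 0 of 39 passed in spermatocyte-like cells, 0 of 38 in round and 0 of 38 in elongating cells, and Fsip2, a fibrous sheath protein, came first with 0.71 ± 0.37 (SE).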

How the data were processed

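Single testis cells of 6 rats were captured in Singleron GEXSCOPE devices and sequenced on Illumina NovaSeq, per the labels' protocols. The authors deposited a table of raw counts per gene and cell for each library. The aligner, annotation, genome build and cell filter, and if counts are of reads or molecules, are not given in the sources used, so limits of 3 counts cover counting error only. The deposited log tables were not used.

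Cells were clustered (scikit-learn 1.9.0, leidenalg 0.10.2, resolution 1, 30 components, 15 neighbours) on 1984 variable genes without kinesins and named by at least 3 markers. Scrublet (scanpy 1.11.5) marked 73 cells (0.622%) as doublets, and none was removed. Counts were summed per library and class (at least 20 cells). Stress was tested with edgeR 4.0.16 (filterByExpr, TMM, quasi-likelihood), with DESeq2 1.42.0 as an alternative, on 3 against 3 libraries. The tests were tested on simulated data. Replicates are libraries, whose pairs within a group differed by more than sampling noise (chi-square over its degrees of freedom 163 to 621). Where nothing but labels separates animals, p-values measure the spread between these libraries.

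Members and lists were chosen with earlier results of these data known. Named genes were the 6 most abundant members per class, those over 4-fold apart in 6 of 6 libraries, and the 4 (3 for interactions) smallest p-values per test. Alternatives changed scaling, count filter, tool, clustering, doublets, replicate block and single libraries. The scaling over 18 sums and the joint removal of 2 libraries were chosen after seeing the data. The joint removal kept control replicate 2.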

Additional observations from a re-analysis of the deposited data

How the results depend on the processing

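No kinesin gene was called in any of the 80 fits, and the smallest adjusted p of a member was 0.502, for Kif17 in elongating cells without both control replicate 3 and stressed replicate 1. The number of genes of any kind that passed the threshold was 0 in spermatocyte-like, 2 in round, 1 in elongating and 1 over all cells. Without a filter on low counts it was 2, 6, 2 and 2, with DESeq2 3, 10, 6 and 4, and without those 2 libraries together 1, 8, 2 and 3. Leaving out single libraries gave 0 to 0, 2 to 5, 0 to 2 and 0 to 3, with 5 in round cells without control replicate 2. In elongating cells it was 0 without control replicate 1 or 3 and 2 without stressed replicate 2 or 3. Over all cells, omitting control replicate 1, control replicate 3 or stressed replicate 2 gave 0, omitting stressed replicate 1 gave 3, and omitting stressed replicate 3 gave 2. For the elongating against round difference by condition, 0 became 1 without the filter and stayed 0 to 0 when single libraries were left out.

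With the replicate number as a block the counts were 0, 2, 1 and 1, as without it. Same-numbered libraries deviated together with correlations of 0.016, 0.039 and 0.237 in spermatocyte-like cells, so the numbers were not taken to pair the animals.

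Of 278 alternative values of named stress changes, 2 changed sign, both without the 2 libraries: Kif11 in spermatocyte-like cells (-0.227) and Kif12 over all cells (-0.0698). Of 288 alternative stage ratios, 0 changed sign and 23 moved by more than 1 SD, 22 of them under TMM over all 18 sums. Spermatocyte-like cells of stressed replicate 1 held 867447 counts, against 4988757 or more elsewhere, so low members were least precise there.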

Other observations

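Cluster 21, with 21 cells and no name from the marker lists, held several kinesins at higher pooled levels than the named clusters. It came from all 6 libraries, with 1 to 9 cells each, and had counts for 10 of 11 spermatogonia markers and for 20 of 23 spermatocyte markers, beside 17 of 17 elongating spermatid and 9 of 10 stromal markers. Kif26a, a kinesin that has lost its motor activity, was among the genes that led it. Its 314 counts there came from 15 of the 21 cells in 5 libraries, at 546 CPM, and the other 11723 cells held 52 counts in 16 cells, at 0.111 CPM. The light chain Klc1 had 148 CPM in this cluster, in 12 cells, and 19.4 CPM in cluster 19. The heavy chain Kif5b had 116 CPM there and 55.3 CPM in spermatocyte-like cluster 19, the highest of the named clusters.

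The spindle motors Kif4a, Kif15, Kif23 and Kif11 stood at 195, 214, 160 and 95.6 CPM in this cluster, against at most 18.3, 144, 69.4 and 39.5 CPM in a spermatocyte-like cluster. Kif18a, Kifc1, Kif20a and Kif2c also stood above each spermatocyte-like cluster, pooled over libraries. Kifc1 (31.3 CPM) rested on 18 counts in 4 cells and Kif20a (20.9 CPM) on 12 counts in 5 cells. Single libraries reached 32.6 and 33.97 CPM of these 2 genes in cluster 15. Kif2c stood at 83.5 CPM in cluster 21, where elongating spermatid markers summed to 22446 CPM. The part of such RNA in its level was not tested. Other members of the spindle list went the other way. Kif20b, Kif18b and Kif14 had 269, 8.69 and 3.48 CPM in cluster 21, against at most 831, 41.3 and 10.7 CPM in a spermatocyte-like cluster. Kif4b had 0 CPM in cluster 21, against 84.4 ± 23.6 CPM (SD, n = 6) in spermatocyte-like cells. With 1 to 9 cells a library no comparison of conditions was made there. These genes were picked out after their values were seen.

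The unnamed cluster 14, with 225 of its 284 cells from stressed replicate 1, held Kif2c at 561 CPM, Klc3 at 139 CPM, Kif21b at 56.8 CPM and Kif20b at 2.61 CPM.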
